A study of Callithrix jacchus with 20 samples.

Results

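Pre-ME, the precursors of mesendoderm, were induced from the common marmoset line DPZ_cjiPSC2 with or without Activin A (ActA), and the change of every gene with ActA is described here. The cells had been kept in cjPSCM, a feeder-free medium with the GSK3 inhibitor CHIR, A419259, the tankyrase inhibitor IWR-1, vitamin C, LIF, TGFβ and FGF2. After dissociation, both groups were plated on vitronectin in aRB27 medium with 3 µM CHIR and the ROCK inhibitor Y-27632 for 24 h. Pre-ME + ActA received 100 ng/ml ActA in addition, and pre-ME − ActA received none. Poly(A) RNA of 2 biological replicates per group was sequenced, so that 4 of the 20 libraries of the study were compared. All libraries come from 1 line of induced pluripotent stem cells (cjiPSCs) from foetal fibroblasts, and p-values therefore measure the spread between cultures of this line only. Between 8193816 and 17491202 reads were counted on genes per library, and 15795 of the 25100 genes in the table passed the filter on low counts. In bulk RNA fewer cells of a type and less RNA per cell cannot be told apart.

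ActA is a ligand of the TGFβ superfamily. It binds type II and type I activin receptors, which phosphorylate SMAD2 and SMAD3, and these enter the nucleus with SMAD4 and bind target genes with partners such as FOXH1. NODAL signals through the same pathway in the embryo, where together with WNT it patterns the primitive streak, mesoderm and endoderm, and it is held in check by the LEFTY antagonists. CHIR stabilises β-catenin and so stands in for the WNT signal in both groups.

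ActA changed genes in both directions, with more genes past the thresholds on the higher side. With both thresholds of the study applied, an adjusted p below 0.05 and a change of more than 4-fold (2 on the log2 scale), 225 genes (1.42% of those tested) were higher in pre-ME + ActA and 109 (0.69%) were lower. At the adjusted p alone, 1799 genes (11.4%) were higher and 1508 (9.55%) were lower. All adjusted p-values are from edgeR's quasi-likelihood test over all 20 libraries with Benjamini-Hochberg adjustment, and levels are in CPM, counts scaled to a common library size after TMM normalisation, given for replicate 1 and replicate 2. Leaving out replicate 1 of pre-ME + ActA left 138 higher and 43 lower genes at both thresholds, and leaving out replicate 2 of pre-ME − ActA left 160 and 66. The adjusted p alone depended more on single libraries, as 521 genes were higher and 202 lower without replicate 1 of pre-ME + ActA, 541 and 396 without replicate 2 of pre-ME − ActA, and 614 and 984 were lower without replicate 2 of pre-ME + ActA and without replicate 1 of pre-ME − ActA. Of the 334 genes past both thresholds, 277 to 313 still changed by more than 4-fold the same way when any 1 of the 4 libraries was left out. These genes had been chosen by their fold in the same libraries, so this is no separate test of the fold.

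**Figure D1:**
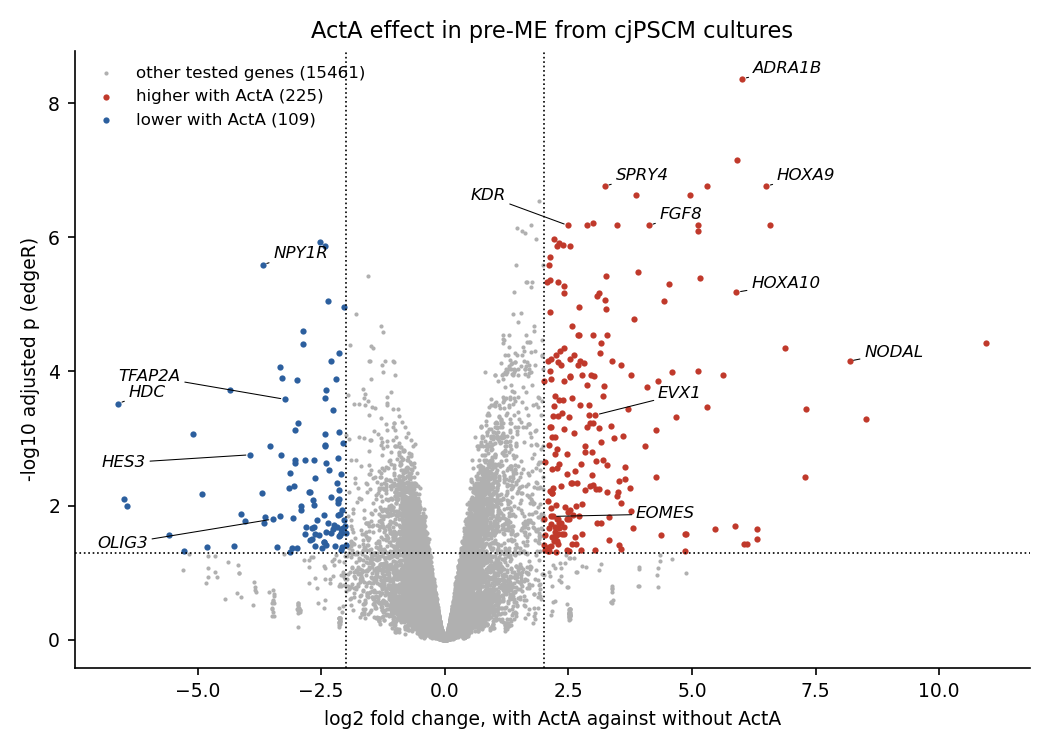
Each point is 1 of the 15795 genes tested, with the log2 fold change of pre-ME + ActA against pre-ME − ActA on the horizontal axis and the −log10 of edgeR's adjusted p on the vertical axis. Dotted lines mark a log2 fold change of 2 either way and an adjusted p of 0.05, red points are the 225 genes higher and blue points the 109 genes lower at both, and ADRA1B has the smallest adjusted p. Fitted values of genes with no count in 1 group are not measured folds.

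Among genes with a symbol and at least 20 counts in each library of the higher group, the 15 with the largest rise included GSX2, NODAL, HOXA9, ADRA1B, HOXA10, SLC2A5, NKX2-3, SPSB1, CYP26B1, ADAMTSL2, TIMP4, FGF18, RGCC and PGPEP1. GSX2, a homeobox gene of the ParaHox group, had 56 and 24 counts in pre-ME + ActA and none in pre-ME − ActA, which makes it at least 37.3-fold higher against 3 counts over the group. ADRA1B, which encodes an adrenergic receptor, stood at 120.4 and 92.5 CPM with ActA and 1.82 and 1.36 CPM without (log2 fold change 6.02, SE 0.29, adjusted p = 4.33e-09). NKX2-3, a homeobox gene, stood at 102 and 116 CPM with and 2.68 and 2.82 CPM without ActA (log2 fold change 5.31, SE 0.36, adjusted p = 1.72e-07). In all 15 genes both ActA libraries lay above both libraries without ActA, as the rule required and as held for 32.7% of all genes tested (34.8% had the reverse order), and all 15 stayed past an adjusted p of 0.05 when any 1 of the 4 libraries was left out. SLC2A5 had 0 and 2 counts without ActA, and the ratio of its pooled rates was 57.4-fold with a 95% counting interval from 15.4 to 482.

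The labelled cell type was checked against its markers. Of 10 markers of mesendoderm precursors, all had more than 3 counts over the 4 libraries, and their summed level was 428 and 287 CPM in pre-ME + ActA against 196 and 160.1 CPM in pre-ME − ActA. SP5, a direct WNT target, made up much of this sum at 248 and 168 CPM with and 160.2 and 133 CPM without ActA, while cjiPSCs in cjPSCM had 1.86 and 2.09 CPM. TBXT, the defining T-box gene of the primitive streak, was nearly absent, with 2 and 0 counts in pre-ME + ActA and 1 and 1 in pre-ME − ActA. GSC, the organiser homeobox gene, had 4 and 0 counts with and 3 and 2 without ActA and did not pass the filter. The pluripotency markers POU5F1, NANOG, SOX2, LIN28A and SALL4 were present in all 4 libraries, with a summed level of 1657 to 1707 CPM with ActA and 2026 to 2043 CPM without. Of 3 trophoblast markers in the table, VGLL1 and GCM1 were at 0 in all 4 libraries and CGA had at most 9 counts, and the blood markers PTPRC and GATA1 had at most 4 counts per library. Of 6 mesoderm markers 5 had more than 3 counts, with a sum of 251 and 260.0 CPM with ActA against 58.8 and 44.0 CPM without, nearly all of it KDR. Definitive endoderm markers summed to 71.1 and 57.7 CPM against 71.0 and 75.6 CPM (5 of 6 detected), and neural markers to 15.2 and 11.7 CPM against 3.59 and 3.45 CPM (3 of 4 detected). With ActA nearly all of the neural sum was LHX2, while PAX6 had lower levels with ActA and did not pass the test. For blood and endothelium the sum was 213 and 217 CPM against 127 and 112 CPM (4 of 4 detected). The part of such cells in the results was not tested.

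The genes of the NODAL and Activin response rose most often after the HOXA cluster. Of 15 members tested, 9 (60%) were higher with ActA and 1 (6.67%) was lower, against 11.4% and 9.55% of all genes. The median log2 fold change was 1.60, against -0.018 over all genes tested. NODAL itself, the ligand that uses the receptors of ActA, had 268 and 38 counts in pre-ME + ActA and 0 and 1 in pre-ME − ActA. Its libraries with ActA lay far apart, at 20.2 and 4.80 CPM, yet both were above 0 and 0.0909 CPM without ActA, and the ratio of pooled rates was 428-fold with a 95% counting interval from 76.3 to 16975 (adjusted p = 6.99e-05). Feedback inhibitors of the pathway were higher as well. SMAD7, an inhibitory SMAD, stood at 76.5 and 57.3 CPM against 10.9 and 12.3 CPM (log2 fold change 2.54, SE 0.22, adjusted p = 1.33e-06), and PMEPA1, which sequesters receptor-activated SMADs, at 46.3 and 47.7 CPM against 5.73 and 4.64 CPM (log2 fold change 3.16, SE 0.37, adjusted p = 3.70e-05). TGFBI, which encodes a matrix protein, and CCN2, a matricellular growth factor, had log2 fold changes of 2.16 and 1.89 (adjusted p = 0.000129 and 0.00239). FOXH1, the DNA-binding partner of the SMADs, was the 1 member that was lower, at 38.4 and 38.5 CPM with and 55.1 and 61.0 CPM without ActA (log2 fold change -0.59, SE 0.15, adjusted p = 0.0122). Its adjusted p rose to between 0.0643 and 0.105 without either library of pre-ME + ActA or without replicate 2 of pre-ME − ActA. Of the 9 higher members, 7 stayed past the test in every fit that left out 1 library.

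**Figure D2:**
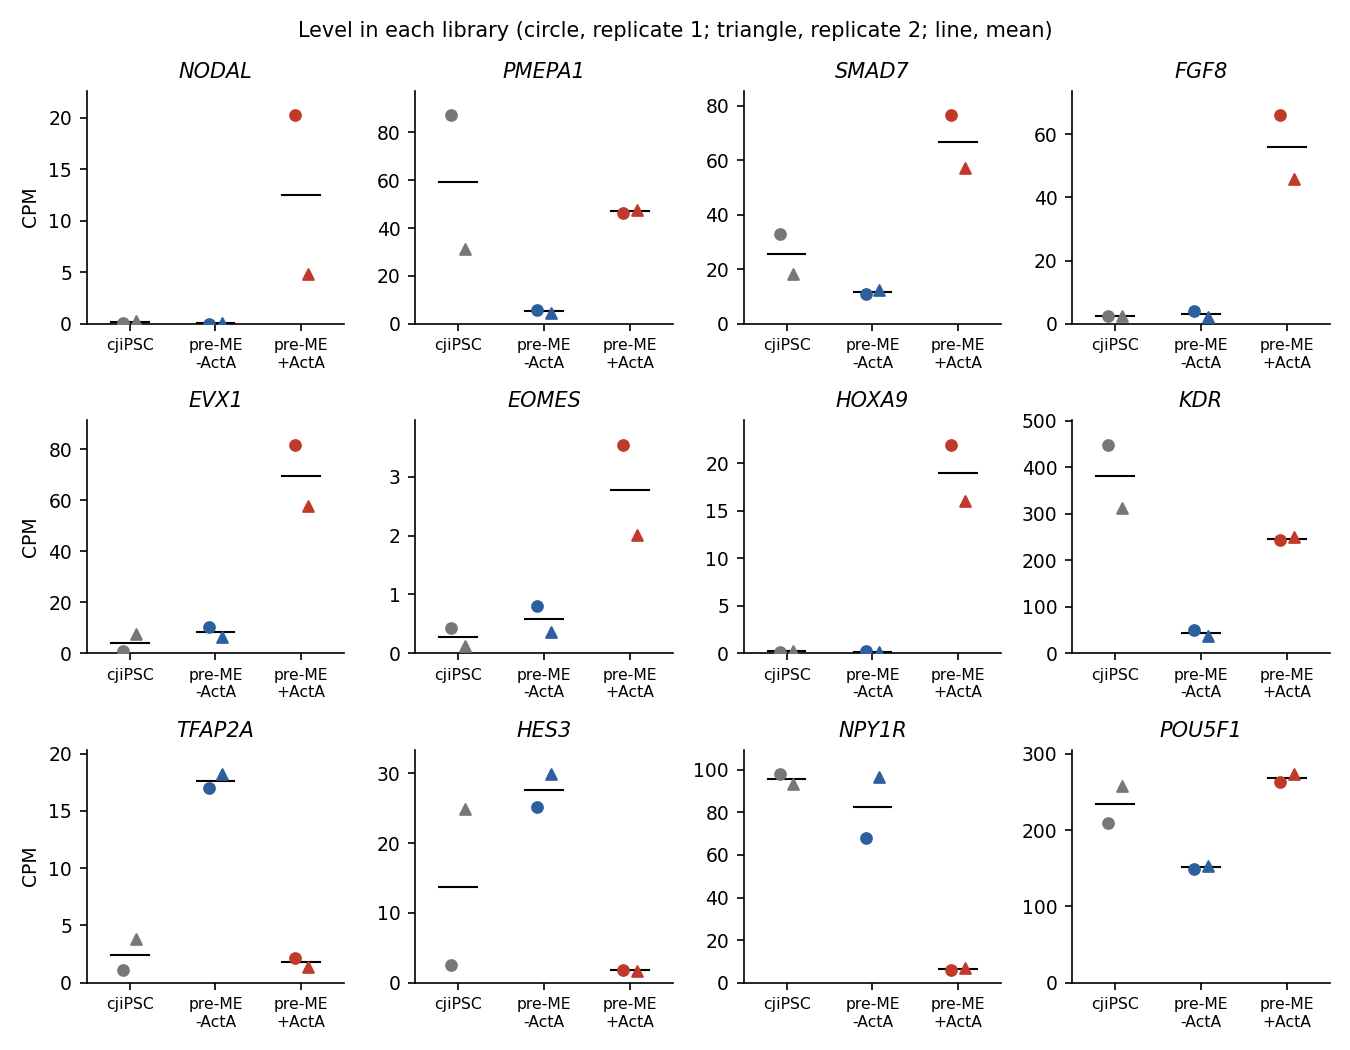
Panels show the TMM-normalised CPM of 12 genes in each library of cjiPSCs in cjPSCM, pre-ME − ActA and pre-ME + ActA (circle, replicate 1; triangle, replicate 2; line, mean of 2), with each vertical axis starting at 0. The pre-ME libraries with and without ActA do not overlap in any panel, which is no evidence beyond the test itself. Of all genes tested, 32.7% did not overlap and were higher with ActA, and 34.8% did not overlap and were lower. Among genes past the adjusted p, 1797 of 1799 higher and 1507 of 1508 lower genes did not overlap. NODAL differs between the 2 libraries with ActA (20.2 and 4.80 CPM), and KDR and POU5F1 have levels in cjiPSCs above those of pre-ME − ActA.

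LEFTY1, LEFTY2 and CFC1 had no row under these symbols. A pair of genes with LOC names, picked here after their values were seen, showed larger changes than most genes with a symbol. LOC100408978 had 338 and 110 counts with ActA and none without, so that it was at least 209-fold higher. LOC100408003 stood at 1013 and 679 CPM with ActA and 10.1 and 7.45 CPM without (log2 fold change 6.57, SE 0.51, adjusted p = 6.65e-07). In the gene order of a RefSeq table of the assembly calJac240_pri, which is not the build of the counts, these protein-coding genes lie between SDE2 and TMEM63A. TMEM63A, which encodes an ion channel protein, stood at 145 and 129.7 CPM with ActA against 32.6 and 30.1 CPM without (log2 fold change 2.13, SE 0.19, adjusted p = 1.99e-06). SDE2, on the other side, stood at 62.9 and 59.2 CPM with and 57.2 and 58.5 CPM without ActA and did not pass the test (log2 fold change 0.08, SE 0.11, adjusted p = 0.649). LOC118152023, a protein-coding gene also picked after its values were seen, stood at 9.19 and 8.33 CPM with ActA and 0.268 and 0.182 CPM without (log2 fold change 5.17, SE 0.49, adjusted p = 4.08e-06).

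Genes of the primitive streak and early mesendoderm were mostly higher where they changed. Of 23 members tested, 7 (30.4%) were higher with ActA and 1 (4.35%) was lower, against 11.4% and 9.55% of all genes. The median log2 fold change was 0.82. FGF8, a ligand that the streak secretes, stood at 65.9 and 45.8 CPM with ActA and 3.96 and 2.18 CPM without (log2 fold change 4.13, SE 0.32, adjusted p = 6.65e-07). EVX1, a homeobox gene of the posterior streak, stood at 81.6 and 57.7 CPM against 10.1 and 6.45 CPM (log2 fold change 3.05, SE 0.48, adjusted p = 0.000446). The caudal genes CDX2 and CDX1, which pattern posterior tissue, were higher by log2 fold changes of 2.54 and 1.68 (adjusted p = 0.000115 and 0.000115), with CDX1 at 61.2 and 40.4 CPM against 18.1 and 13.5 CPM. MIXL1 and WNT3, likewise of the early streak, had at most 23 counts in a library, with log2 fold changes of 1.78 and 1.94 (adjusted p = 0.0210 and 0.0217). EOMES, a T-box gene of mesendoderm, had low levels. It had 47 and 16 counts with ActA and 15 and 4 without (log2 fold change 2.18, SE 0.57, adjusted p = 0.0145), and its adjusted p was 0.222 without replicate 1 of pre-ME + ActA and 0.11 without replicate 2 of pre-ME − ActA. The study names EOMES and WNT3A in a comparison of pre-ME + ActA with cjiPSCs, which is not the one made here. Between the groups with and without ActA, WNT3A did not pass the test, with 0.678 and 0.883 CPM with ActA and 1.18 and 0.909 CPM without (log2 fold change -0.47, SE 0.70, adjusted p = 0.670). HES7, an oscillator of somite formation, was lower (log2 fold change -1.55, SE 0.50, adjusted p = 0.0381). CDX1, CDX2, FGF8 and EVX1 stayed past the test whichever library was left out. In all, 4 of the 7 higher members did so without replicate 1 of pre-ME + ActA or without replicate 2 of pre-ME − ActA, and 6 and 5 without the other libraries, and HES7 did in none of these fits.

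The HOX genes encode homeodomain factors that pattern the body axis, and in each cluster the gene order follows the order of their domains along the axis. In the HOXA cluster, which the study had singled out on these samples, 5 of 8 genes tested (62.5%) were higher with ActA, against 11.4% of all genes. None was lower, also at an unadjusted p under 0.05 (0 genes) or with DESeq2 (0 genes). HOXA9 stood at 21.9 and 16 CPM with ActA and 0.268 and 0.0909 CPM without (log2 fold change 6.51, SE 0.43, adjusted p = 1.72e-07), and HOXA10 at 10.1 and 6.94 CPM against 0.161 and 0.0909 CPM (log2 fold change 5.90, SE 0.59, adjusted p = 6.59e-06). HOXA11 had 22 and 11 counts with ActA and none without, which makes it at least 15.4-fold higher. HOXA13 was already detected without ActA, at 2.79 and 3.45 CPM, and reached 14.5 and 15.8 CPM (log2 fold change 2.29, SE 0.36, adjusted p = 0.000454). HOXA7 was scarce, with 12 and 4 against 2 and 1 counts, a ratio of 7.47-fold (95% counting interval 2.14 to 40.0), and it was past the test only with all 4 libraries (adjusted p = 0.0461 with them). At the other end of the cluster no gene passed the test. HOXA2 stood at 14.2 and 9.59 CPM with and 10 and 8.73 CPM without ActA (log2 fold change 0.35, SE 0.49, adjusted p = 0.639), and HOXA3 at 3.24 and 1.51 against 1.61 and 0.636 CPM (log2 fold change 1.05, SE 0.50, adjusted p = 0.144). HOXA2 was thus already present without ActA. HOXA4, HOXA5 and HOXA6 had at most 11 counts in a library and were not tested.

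By gene order in the RefSeq table, every gene tested from HOXA7 to EVX1 was higher, and 2 LOC genes there were not tested. This stretch also holds the long non-coding RNA gene LOC118143648 (9.65 and 7.07 against 1.23 and 1.09 CPM, log2 fold change 2.84, SE 0.51, adjusted p = 0.00130). Beyond EVX1 lies HIBADH, a mitochondrial enzyme of valine breakdown, which was lower (log2 fold change -0.88, SE 0.23, adjusted p = 0.0139; 0.0665 without replicate 2 of pre-ME + ActA, and also lost without replicate 1 and without replicate 2 of pre-ME − ActA), and beyond the other end of the cluster lies SKAP2, an adaptor protein gene, at 34.7 and 33.6 against 36.4 and 30.1 CPM (log2 fold change 0.04, SE 0.18, adjusted p = 0.913). The strand setting of the counting is not stated, so reads of the HOXA genes and of overlapping antisense RNAs cannot be told apart. In the other clusters no gene passed edgeR's test among 5 HOXB and 4 HOXD genes (1 of each at an unadjusted p under 0.05, 0 with DESeq2), with summed levels of at most 4.77 CPM for HOXB and 2.41 CPM for HOXD in any of the 4 libraries, and the 8 HOXC genes in the table were at or near 0.

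**Figure D3:**
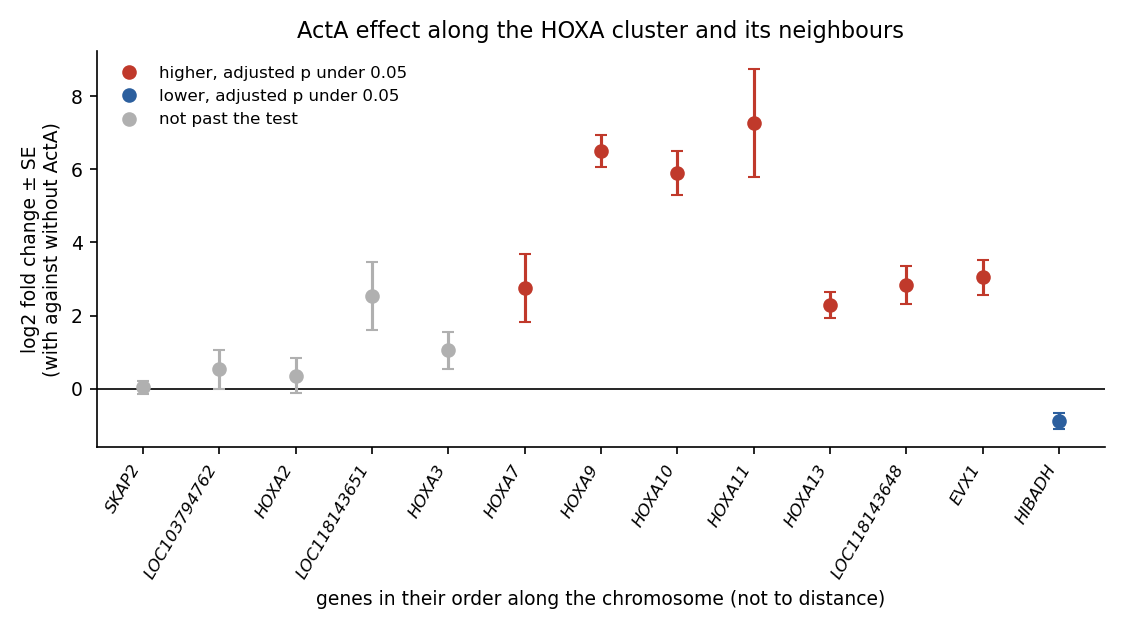
The log2 fold change of pre-ME + ActA against pre-ME − ActA (points; bars, ± SE from edgeR) is plotted for genes of the HOXA cluster and their neighbours in their chromosomal order, evenly spaced, where genes that were not tested or had 3 counts or fewer in all 4 libraries, and 1 other, are left out. Red points, from HOXA7 to EVX1, were higher and the blue point, HIBADH, lower at an adjusted p under 0.05, grey points did not pass, and HOXA11 had no count without ActA so that its fitted value is not a measured fold.

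FGF signalling acts through ERK, and its feedback genes report the activity of this pathway. Of 28 members of this list tested, 12 (42.9%) were higher with ActA and 3 (10.7%) lower, against 11.4% and 9.55% of all genes. The median log2 fold change was 0.58. Besides FGF8, the ligand FGF18 was higher, at 3.99 and 2.90 against 0.161 and 0.0909 CPM (log2 fold change 4.61, SE 0.57, adjusted p = 0.000101). Among the feedback genes, SPRY4, an inhibitor of receptor signalling, stood at 101 and 79.6 CPM with and 12 and 6.64 CPM without ActA (log2 fold change 3.24, SE 0.22, adjusted p = 1.72e-07). The ETS factor ETV4 stood at 61.0 and 44.2 CPM with ActA against 4.23 and 2.82 CPM without (log2 fold change 3.86, SE 0.27, adjusted p = 2.37e-07), and the related ETV5 at 39.8 and 31.9 CPM against 5.68 and 2.45 CPM (log2 fold change 3.07, SE 0.31, adjusted p = 7.50e-06). DUSP4 and DUSP6, phosphatases that switch off ERK, had log2 fold changes of 1.76 and 1.66 (adjusted p = 0.000159 and 4.68e-06). In the cjiPSCs the level was 67.6 and 62.6 CPM for SPRY4 and 74.3 and 81.0 CPM for ETV4, both above pre-ME − ActA. FGF3 went the other way, at 0.528 and 1.14 CPM with and 7.87 and 4.91 CPM without ActA (log2 fold change -3.04, SE 0.49, adjusted p = 0.000754), as did the receptor gene FGFR2 (log2 fold change -0.88, SE 0.16, adjusted p = 0.00132) and FGF12, which encodes an intracellular FGF (log2 fold change -1.46, SE 0.18, adjusted p = 4.44e-05). All 3 lower members stayed past the test whichever library was left out, and of the 12 higher members 7 did, with 7 without replicate 1 of pre-ME + ActA and 7 without replicate 2 of pre-ME − ActA.

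Among WNT ligands, 5 of 14 tested (35.7%) were higher, against 11.4% of all genes. None was lower, also at an unadjusted p under 0.05 (0 genes) or with DESeq2 (0 genes). WNT7A rose from 1.23 and 0.727 to 13.3 and 7.57 CPM (log2 fold change 3.36, SE 0.55, adjusted p = 0.000653), and WNT5A, a ligand of the non-canonical pathway, from 24.7 and 25.3 to 52.8 and 43.2 CPM (log2 fold change 0.94, SE 0.17, adjusted p = 0.00131). WNT2 and WNT4 were also past the test, with log2 fold changes of 1.90 and 1.36 (adjusted p = 0.0355 and 0.0247), and WNT5A and WNT7A alone stayed there without each library in turn. Of 23 feedback and target genes of WNT tested, 7 (30.4%) were higher and 1 (4.35%) was lower, against 11.4% and 9.55% of all genes. AXIN2, a member of this list, was in neither group. LEF1, a nuclear effector, stood at 199 and 154 CPM with and 46.6 and 32.6 CPM without ActA (log2 fold change 2.15, SE 0.27, adjusted p = 6.49e-05), against 2.03 and 6.27 CPM in cjiPSCs. NOTUM, a secreted enzyme that inactivates WNT, stood at 49.6 and 34.1 against 9.53 and 8.45 CPM (log2 fold change 2.22, SE 0.19, adjusted p = 1.05e-06), and APCDD1, a WNT inhibitor at the membrane, at 412 and 403 against 193 and 177 CPM (log2 fold change 1.14, SE 0.20, adjusted p = 0.00113). LEF1, NOTUM and APCDD1 stayed past the test without any 1 library. DKK2, NKD2 and MYC were higher at log2 fold changes of 3.64, 2.42 and 1.06 (adjusted p = 0.00267, 0.0269 and 0.0139), though not without replicate 1 of pre-ME + ActA. The secreted antagonist FRZB was lower at 2.49 and 1.77 against 9.53 and 8.0 CPM (log2 fold change -2.01, SE 0.65, adjusted p = 0.0386), but its adjusted p was 0.100 to 0.177 with 1 library left out. Without replicate 1 of pre-ME + ActA 3 of the 7 higher genes stayed past the test, and without replicate 2 of pre-ME − ActA 4.

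In the NOTCH pathway, ligands on 1 cell activate receptors on the next. Of 19 members tested, 7 (36.8%) were higher and 1 (5.26%) was lower, against 11.4% and 9.55% of all genes. The effector HES1 stood at 43.9 and 36.8 CPM with and 8.14 and 9.18 CPM without ActA (log2 fold change 2.23, SE 0.32, adjusted p = 0.000235), and HEY1, another effector, at 33.5 and 31.5 against 10 and 10.8 CPM (log2 fold change 1.65, SE 0.16, adjusted p = 4.68e-06). The ligand JAG2 stood at 176 and 176 against 55.4 and 50.2 CPM (log2 fold change 1.74, SE 0.17, adjusted p = 5.41e-06), and the receptors NOTCH1 and NOTCH3 had log2 fold changes of 1.11 and 1.06 (adjusted p = 0.000469 and 0.000919). These 5 genes stayed past the test in every fit that left out 1 library. In cjiPSCs the level of HES1 was 58.9 and 50.5 CPM and that of JAG2 173 and 178 CPM, again above pre-ME − ActA.

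Of 42 ligands, receptors and antagonists of the TGFβ superfamily, 11 (26.2%) were higher and 6 (14.3%) lower with ActA, against 11.4% and 9.55% of all genes. Secreted antagonists were among the higher genes. FSTL3, which binds ActA, stood at 18.3 and 17.2 CPM with and 4.45 and 3.54 CPM without ActA (log2 fold change 2.13, SE 0.23, adjusted p = 1.28e-05). The BMP antagonist NOG stood at 58.5 and 30.9 CPM against 11.2 and 11.1 CPM (adjusted p = 0.000139). The ligand genes BMP6, GDF7 and TGFB1 were higher by 1.93, 1.66 and 1.34 on the log2 scale (adjusted p = 0.00937, 0.0189 and 0.0115). Among the lower genes were receptors, namely TGFBR3 at 13.2 and 17.3 against 42.7 and 43.2 CPM (log2 fold change -1.51, SE 0.26, adjusted p = 0.00106), TGFBR1 (log2 fold change -0.63, SE 0.17, adjusted p = 0.0153) and the activin type II receptor ACVR2B (log2 fold change -0.59, SE 0.20, adjusted p = 0.0443). BMP2 was lower too, at 1.28 and 0.883 against 3.75 and 4.64 CPM (log2 fold change -1.89, SE 0.59, adjusted p = 0.0333). The calls of BMP6, GDF7, TGFB1, TGFBR1, ACVR2B and BMP2 were lost without replicate 1 of pre-ME + ActA and without 1 or more of the others, and FSTL3, NOG and TGFBR3 kept theirs. Single libraries mattered here, since 4 higher and 2 lower genes stayed past the test without replicate 1 of pre-ME + ActA, 9 and 1 without replicate 2, 4 and 2 without replicate 1 of pre-ME − ActA, and 4 and 3 without replicate 2.

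In the BMP response list, 11 of 22 members tested (50%) were higher and 1 (4.55%) was lower, against 11.4% and 9.55% of all genes. The members that rose include inhibitors and NODAL targets as well as direct targets of BMP, and SMAD7 and NOG are also in the lists above. SMAD6, an inhibitory SMAD of the BMP branch, stood at 34.4 and 27.4 against 11.3 and 11.5 CPM (log2 fold change 1.45, SE 0.26, adjusted p = 0.00129), and TBX3, a T-box repressor, at 16.8 and 18.2 against 5.95 and 5.64 CPM (log2 fold change 1.59, SE 0.26, adjusted p = 0.000669). ID2, a widely used readout of BMP, was lower, at 81.2 and 76.0 CPM with and 136 and 164 CPM without ActA (log2 fold change -0.93, SE 0.19, adjusted p = 0.00355). The related ID1, ID3 and ID4, in the same list, were not among the genes past the test in either direction. Of the 11 higher genes, 7 stayed past the test without replicate 1 of pre-ME + ActA, 8 without replicate 2, 7 without replicate 1 of pre-ME − ActA and 9 without replicate 2.

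Mesoderm genes were mostly higher where they changed. Of 28 tested, 9 (32.1%) were higher and 1 (3.57%) was lower, against 11.4% and 9.55% of all genes. The median log2 fold change was 0.52. KDR, the receptor of VEGF and a marker of lateral mesoderm, stood at 243 and 250.5 CPM with and 50.7 and 36.4 CPM without ActA (log2 fold change 2.5, SE 0.20, adjusted p = 6.65e-07). The cjiPSCs had 448 and 314 CPM, above both groups of pre-ME. FOXD1, a forkhead gene, stood at 7.84 and 8.83 against 0.429 and 0.909 CPM (log2 fold change 3.71, SE 0.57, adjusted p = 0.000360). The defining early mesoderm genes MESP1, HAND1 and TBX6 had at most 23 counts in a library and did not pass the test, with log2 fold changes of 0.82, 0.81 and 0.67 (adjusted p = 0.267, 0.268 and 0.527). PDGFRA, a receptor of paraxial mesoderm, stood at 4.22 and 4.67 CPM with and 5.57 and 5.18 CPM without ActA (log2 fold change -0.29, SE 0.37, adjusted p = 0.606). FOXC2 had 12 and 5 counts with ActA and none without, at least 7.93-fold higher, and MEOX1 none with ActA and 5 and 3 without, at least 1.90-fold lower, and neither stayed past the test with any library left out. Without replicate 1 of either group, or without replicate 2 of pre-ME − ActA, 5 of the 9 higher genes stayed past the test, and 7 without replicate 2 of pre-ME + ActA.

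Of 14 endothelial and blood genes tested, none was lower (0 lower also at an unadjusted p under 0.05 and with DESeq2). Against 11.4% of all genes, 4 of the 14 (28.6%) were higher. They were KDR, RUNX1 at 60.4 and 51.0 against 12.6 and 9.0 CPM (log2 fold change 2.35, SE 0.30, adjusted p = 7.93e-05), TAL1 at 112 and 131 against 47.2 and 44.5 CPM (log2 fold change 1.40, SE 0.26, adjusted p = 0.00197) and FLI1 (log2 fold change 0.97, SE 0.24, adjusted p = 0.0105; adjusted p = 0.0753 without replicate 1 of pre-ME + ActA and 0.0977 without replicate 2 of pre-ME − ActA). TAL1 stood at 232 and 209 CPM in cjiPSCs, and CDH5, which defines endothelium, at 1067 and 300.1 CPM there against 101 and 85.8 CPM in pre-ME + ActA and 79.6 and 66.9 CPM in pre-ME − ActA (log2 fold change 0.35, SE 0.39, adjusted p = 0.560 for ActA). The part of endothelial cells in these differences was not tested.

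Genes of collagens and the extracellular matrix rose in large number. Of 26 tested, 13 (50%) were higher with ActA and 2 (7.69%) lower, against 11.4% and 9.55% of all genes. The median log2 fold change was 0.90. Fibronectin, FN1, stood at 3541 and 2691 CPM with and 700.3 and 477 CPM without ActA (log2 fold change 2.40, SE 0.24, adjusted p = 6.70e-06). The basement membrane collagen COL4A2 stood at 2200.3 and 2019 against 763 and 539 CPM (log2 fold change 1.70, SE 0.22, adjusted p = 9.07e-05), and the proteoglycan gene BGN at 35.0 and 29.5 against 5.52 and 4.00 CPM (log2 fold change 2.74, SE 0.41, adjusted p = 0.000318). COL1A1 was higher as well (log2 fold change 2.17, SE 0.67, adjusted p = 0.0298), but its adjusted p was 0.205 without replicate 1 of pre-ME + ActA, 0.0961 without replicate 1 of pre-ME − ActA and 0.178 without replicate 2. The proteoglycan genes VCAN and LUM were lower, by log2 fold changes of -0.84 and -0.91 (adjusted p = 0.0264 and 0.0394). Of 5 markers of fibroblasts or mesenchyme, COL1A1 and TWIST1 were higher (log2 fold change 1.07, SE 0.36, adjusted p = 0.0424 for TWIST1), LUM was lower, and COL3A1 and DCN did not pass, with summed levels of 163 and 127 CPM with ActA and 92.8 and 101 CPM without. Without replicate 1 of pre-ME + ActA or replicate 2 of pre-ME − ActA, 7 of the 13 higher matrix genes stayed past the test, and 12 and 11 without the others. TWIST1, VCAN and LUM were each past the test in fewer than all of these fits, and FN1, COL4A2 and BGN in all.

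Retinoic acid is a signal for posterior and neural fates. Its genes moved both ways, with 5 (29.4%) higher and 5 (29.4%) lower of 17 tested, against 11.4% and 9.55% of all genes. CYP26B1, an enzyme that degrades retinoic acid, stood at 25.2 and 14.9 CPM with and 0.589 and 0.545 CPM without ActA (log2 fold change 5.12, SE 0.42, adjusted p = 8.07e-07). CYP26A1, the related enzyme, was highest in 1 library, with 10.6 and 2.65 CPM against 1.23 and 1.64 CPM (log2 fold change 2.29, SE 0.68, adjusted p = 0.0261), and its adjusted p was 0.558 without replicate 1 of pre-ME + ActA. On the lower side were the receptor RXRG at 3.62 and 4.92 against 27.1 and 34.4 CPM (log2 fold change -2.87, SE 0.32, adjusted p = 2.52e-05), the binding protein CRABP1 at 32.2 and 21.7 against 87.3 and 81.7 CPM (log2 fold change -1.64, SE 0.24, adjusted p = 0.000245), and RDH10, an enzyme of retinoic acid synthesis (log2 fold change -1.04, SE 0.18, adjusted p = 0.00106). The receptors RARA and RXRA were higher, by log2 fold changes of 1.05 and 0.93, and RARB and RARG lower, with -0.72 and -0.53 (adjusted p = 0.000701, 0.00403, 0.00475 and 0.0176). CYP26B1, RARA, RDH10, RXRG and CRABP1, but not CYP26A1, RXRA, RARB or RARG, stayed past the test whichever library was left out. Of the 5 higher genes 2 stayed past it without replicate 1 of pre-ME + ActA or replicate 2 of pre-ME − ActA and 3 without replicate 1 of pre-ME − ActA, and of the 5 lower genes 3 without replicate 2 of pre-ME + ActA.

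The 15 genes with the largest decrease under the same rule included HDC, CCNB3, DGKK, HES3, NPY1R, OLIG3, CNTNAP4, OLFM4, ZNF483, TFAP2A, NPY5R, KCNS3, FGF3 and C6H2orf80. HDC, the enzyme that makes histamine, had 0 and 1 counts with ActA and 66 and 87 without, and the ratio of pooled rates was 109-fold lower (95% counting interval 19.3 to 4344). CCNB3, a cyclin, had 0 and 1 against 24 and 25 counts, 35.0-fold lower with an interval from 5.99 to 1410.3. HES3, a repressor of neural differentiation, stood at 1.88 and 1.64 CPM with and 25.2 and 29.8 CPM without ActA (log2 fold change -3.94, SE 0.73, adjusted p = 0.00175), and NPY1R, a neuropeptide Y receptor, at 5.95 and 6.94 against 67.9 and 96.6 CPM (log2 fold change -3.68, SE 0.33, adjusted p = 2.55e-06). The level of NPY1R in cjiPSCs, 97.7 and 93.5 CPM, was near that of pre-ME − ActA. The zinc finger gene ZNF483 stood at 3.92 and 5.30 against 48.3 and 40.0 CPM (log2 fold change -3.29, SE 0.45, adjusted p = 0.000125). For 11 of the 15 genes the adjusted p stayed under 0.05 whichever library was left out. The exceptions included CCNB3 and C6H2orf80, at 0.126 and 0.0951 without replicate 1 of pre-ME + ActA, and OLIG3, at 0.156 and 0.0692 without replicate 1 or 2 of pre-ME + ActA and 0.0689 without replicate 2 of pre-ME − ActA.

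TFAP2A, a transcription factor of amnion and surface ectoderm that also acts in progenitors of primate germ cells, was named by the study in its comparison of pre-ME with cjiPSCs. Between the groups of pre-ME it stood at 2.19 and 1.39 CPM in pre-ME + ActA and 17.0 and 18.2 CPM in pre-ME − ActA (log2 fold change -3.24, SE 0.48, adjusted p = 0.000260). The cjiPSCs had 1.10 and 3.79 CPM, so that of these 3 conditions pre-ME − ActA held the highest level. Other genes of amnion and surface ectoderm did not follow as a group, since 5 of 25 tested (20%) were higher and 4 (16%) lower. GATA2, a transcription factor of amnion, was higher with ActA at 93.9 and 113 CPM against 49.2 and 66.0 CPM (adjusted p = 0.0119), and so was ISL1, another, at 11.4 and 11.4 CPM against 5.41 and 5.73 CPM (adjusted p = 0.00329). GATA3 stood at 68.9 and 74.1 against 39.8 and 44.6 CPM and did not pass (log2 fold change 0.76, SE 0.27, adjusted p = 0.0521), and VTCN1 and GABRP, further amnion markers, had at most 2 counts in a library. A further list held specifiers and markers of primate primordial germ cells, later germ cell genes and sort markers among them. Of its 18 genes tested, 2 (11.1%) were higher, EOMES and GATA2, and 2 (11.1%) lower, TFAP2A and ITGA6. These shares are near the 11.4% and 9.55% of all genes. ITGA6, an integrin used to sort such cells, stood at 114 and 154 against 313 and 299 CPM (log2 fold change -1.20, SE 0.25, adjusted p = 0.00419). GATA2 lost its call without replicate 2 of pre-ME + ActA (adjusted p = 0.0856) and without replicate 1 of pre-ME − ActA (0.107), and of the 4 lower amnion genes 2 stayed past the test without replicate 1 of pre-ME + ActA and 1 without its replicate 2. ITGA6 had an adjusted p of 0.0868 without replicate 1 of pre-ME + ActA.

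Genes of pluripotency stayed on. Of 15 core pluripotency genes tested, 2 (13.3%) were higher and 4 (26.7%) lower with ActA, against 11.4% and 9.55% of all genes. POU5F1 stood at 263 and 273 CPM with and 149 and 153 CPM without ActA (log2 fold change 0.83, SE 0.17, adjusted p = 0.00339), and this held whichever library was left out. NANOG stood at 127 and 142 against 68.9 and 90.6 CPM (log2 fold change 0.76, SE 0.26, adjusted p = 0.0474), but its adjusted p lay between 0.0988 and 0.256 with 1 library left out. SOX2 stood at 305 and 280.4 against 302 and 332 CPM, with overlapping libraries (log2 fold change -0.12, SE 0.25, adjusted p = 0.774). LIN28B, an RNA-binding protein gene, stood at 79.0 and 82.7 against 183 and 178 CPM (log2 fold change -1.16, SE 0.17, adjusted p = 0.000238), and DNMT3B, a DNA methyltransferase, at 141 and 126 against 319.8 and 302 CPM (log2 fold change -1.22, SE 0.31, adjusted p = 0.0114). Of the 4 lower genes 1 stayed past the test without either library of pre-ME + ActA, 3 without replicate 1 of pre-ME − ActA and 2 without replicate 2, and of the 2 higher genes POU5F1 alone. DNMT3B lost its call without either library of pre-ME + ActA and without replicate 2 of pre-ME − ActA, and LIN28B kept its call throughout.

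Of 25 neural and neural crest genes tested, 3 (12%) were higher and 4 (16%) lower, against 11.4% and 9.55% of all genes. LHX2, a homeobox gene of the forebrain, stood at 14.3 and 11 CPM with and 1.55 and 1.64 CPM without ActA (log2 fold change 3.0, SE 0.34, adjusted p = 2.86e-05), while SOX3, ZIC5 and MAP2 were lower by log2 fold changes of -1.48, -1.63 and -1.29 (adjusted p = 0.0170, 0.0155 and 2.13e-05). MAP2 alone of the 4 lower genes stayed past the test without either library of pre-ME + ActA. PAX6, a defining neural gene, had 0.678 and 0.631 against 1.34 and 1.00 CPM (log2 fold change -0.85, SE 0.63, adjusted p = 0.360), and SIX3 was at 0 in all 4 libraries. In the endoderm list, none of 14 genes was higher (0 also at an unadjusted p under 0.05 and with DESeq2) and 1 was lower. SOX17 stood at 19.8 and 16.8 against 18.1 and 23.4 CPM (log2 fold change -0.16, SE 0.46, adjusted p = 0.835), GATA6 at 41.5 and 31.4 against 38.2 and 35.6 CPM (log2 fold change -0.01, SE 0.27, adjusted p = 0.981), and FOXA2 had at most 9 counts in a library.

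**Figure D4:**
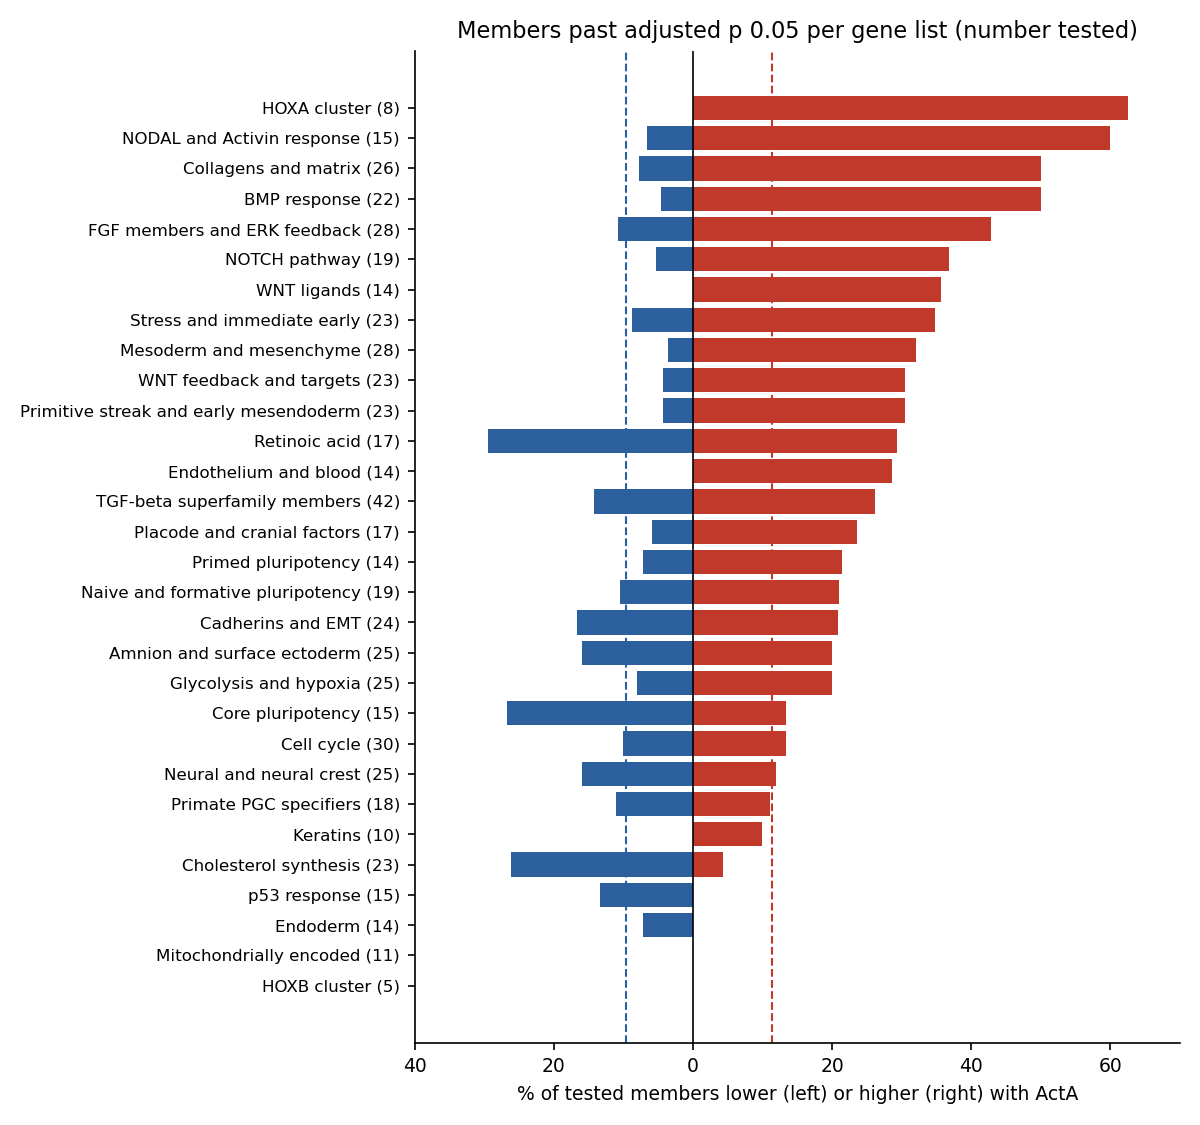
For each gene list with at least 5 genes tested, the bars give the percentage of tested members that were higher (red, right) or lower (blue, left) with ActA at an adjusted p under 0.05, with the number tested in brackets. Dashed lines mark the share of all 15795 genes (11.4% higher, 9.55% lower); the HOXA cluster (5 of 8) and the NODAL and Activin response (9 of 15) have the largest shares on the higher side, and retinoic acid (5 of 17) on the lower side.

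The same ActA treatment of pre-ME had been applied to cells kept in TESR, a feeder-free medium for primed cells, in 4 other libraries. At the adjusted p alone, 890 genes (5.63%) were higher and 506 (3.20%) lower with ActA there. Of the 225 genes higher at both thresholds in pre-ME from cjPSCM, 145 (64.4%) were also higher in pre-ME from TESR and none was lower, and of the 109 lower genes 53 (48.6%) were also lower and none was higher. At an unadjusted p under 0.05 edgeR gave 0 and 1 genes in the opposite direction, and DESeq2 called 0 and 0. Their median log2 fold changes in TESR were 2.04 and -1.82, against 2.72 and -2.62 in cjPSCM, where the genes had been chosen by this value. All 15 of the named genes with the largest rise were past the test in TESR, and 11 of the 15 with the largest decrease. NODAL stood at 51.3 and 20.8 CPM with and 0.100 and 0.213 CPM without ActA in TESR (log2 fold change 7.72, adjusted p = 5.90e-06), and HOXA9 at 29.9 and 27.5 against 0.900 and 1.19 CPM (log2 fold change 4.76, adjusted p = 2.69e-07). TBXT, nearly absent in cjPSCM, stood at 5.03 and 2.90 CPM with and 1.35 and 0.724 CPM without ActA in TESR (log2 fold change 1.94, adjusted p = 0.0175).

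A test of the difference itself found 63 genes (0.399%) whose ActA effect differed between the media at an adjusted p under 0.05. This number rested on the model and on single libraries, as it was 338 with DESeq2 and 9 without replicate 1 and 15 without replicate 2 of pre-ME + ActA in cjPSCM, and 11 without replicate 2 of pre-ME − ActA. With edgeR it was far larger on fewer libraries, at 2515 genes on the 8 pre-ME libraries and 3066 on the 16 libraries that are not cjiPSCs. The share of genes whose ActA effect depends on the medium is therefore not settled here. Among the 334 genes past both thresholds in cjPSCM, 9 passed the test of the difference in the model of all 20 libraries. ADRA1B, NKX2-3, NOTUM, COLEC12 and ISM1 rose more in cjPSCM, SERPINB9 and CBLN2 fell more there, and VWDE and LDLRAD4 rose more in TESR, where those outside the naming rule are given because they complete the count. NKX2-3 stood at 9.32 and 12.1 CPM with and 2.55 and 1.49 CPM without ActA in TESR, and its effect was larger in cjPSCM by 2.89 on the log2 scale (SE 0.49, adjusted p = 0.0154). For CDX1, which did not rise past the test in TESR (66.2 and 93.5 against 78.4 and 85.3 CPM), the difference was 1.72 (SE 0.31, adjusted p = 0.0206). NANOG differed in the other direction, with 95.8 and 101 CPM with and 10.7 and 10.8 CPM without ActA in TESR and a difference of -2.44 (SE 0.38, adjusted p = 0.0114).

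**Figure D5:**
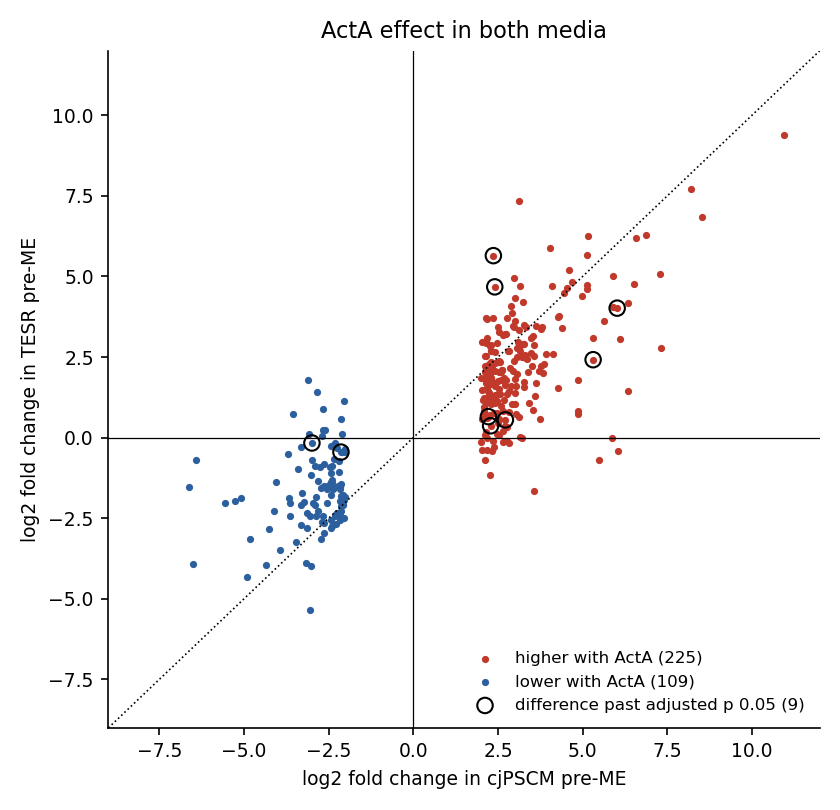
For the 334 genes past both thresholds, the log2 fold change with ActA in pre-ME from cjPSCM (horizontal) is plotted against that in pre-ME from TESR (vertical), with red for the 225 higher and blue for the 109 lower genes and a dotted line where both are equal. Open circles mark the 9 genes for which the difference between media passed an adjusted p of 0.05, and 208 red and 98 blue points have the same sign in TESR.

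The pre-ME of both groups were further aggregated and induced towards cjPGCLCs, marmoset primordial germ cell-like cells, without a further difference in ActA, and cjPGCLCs and somatic cells were sorted at day 4. The sample labels name EpCAM as a sort marker, beside INTα6 in the titles and CXCR4 in the cell types, while the methods of the study name INTα6 and CXCR4, so that the gate behind these libraries is uncertain. In cjPGCLCs 217 genes (1.37%) were higher and 183 (1.16%) lower after pre-ME + ActA than after pre-ME − ActA. Of the 225 genes higher in pre-ME at both thresholds, 22 (9.78%) were also higher in cjPGCLCs, and of the 109 lower genes 9 (8.26%) were also lower. The HOXA genes were among those still higher. HOXA9 stood at 6.03 and 5.4 CPM in cjPGCLCs after ActA and 0.482 and 0.285 CPM without (log2 fold change 3.76, SE 0.44, adjusted p = 0.000382), and HOXA10, HOXA11 and HOXA13, further along the cluster, had log2 fold changes of 3.24, 3.53 and 1.62 (adjusted p = 0.00385, 0.0482 and 0.00786). Fibronectin, ETV4, SPRY4 and TGFBI also passed. TFAP2A was still lower, at 10.4 and 29.8 against 77.4 and 86.7 CPM (log2 fold change -2.06, SE 0.37, adjusted p = 0.00651). Of the genes past both thresholds 4 moved the other way, as the neuropeptide receptor NPY1R with ADAMTS16 and GRIA1, lower in pre-ME, were higher in cjPGCLCs, and MEDAG, higher in pre-ME, was lower (these 3 besides NPY1R were picked after their values were seen).

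In somatic cells of day 4, 3 genes (0.019%) were higher and 1 (0.00633%) lower after ActA at an adjusted p under 0.05. All 3 higher genes were among the 225. They included LOC118152023 (log2 fold change 3.79, adjusted p = 0.00510) and NGFR, the low-affinity receptor of nerve growth factor (log2 fold change 1.92, adjusted p = 0.0427), both picked after their values were seen. In pre-ME, NGFR was scarce and close to the threshold, at 0.829 and 1.26 CPM with and 0.161 and 0.273 CPM without ActA (adjusted p = 0.0496). None of the 109 lower genes passed edgeR's test as lower in somatic cells (9 at an unadjusted p under 0.05, 0 with DESeq2). The 4 somatic libraries had 4784783 to 7171412 reads on genes, fewer than the pre-ME libraries. The cjPGCLC libraries had 6708740 to 14216460, and the part of depth in the number of calls was not tested.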

How the data were processed

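Poly(A) RNA-seq libraries of 10 conditions with 2 biological replicates each were used, grouped by the sample labels. The authors mapped the reads with STAR 2.7.0a to calJac4 after FastQC 0.11.8 and counted them with HTSeq-count 0.11. They deposited raw counts per gene, used here, and counts divided by DESeq2 size factors, not used here. The strand setting and the annotation release are not given in the sources used here, and the labels and the paper name different library kits, so antisense and overlapping genes can share reads. The 2 summary lines of HTSeq-count and 2 rows of unassigned genes (at most 0.00295% of all reads per library, summary lines included) were left out. Reads outside genes made up 10.6% to 23.2% of the reads per library.

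Raw counts were tested with edgeR 4.0.16 (R 4.3.3, limma 3.58.1; TMM, filterByExpr by condition, quasi-likelihood F-test) in 1 model of all 20 libraries with 1 coefficient per condition, which left 10 residual degrees of freedom, with Benjamini-Hochberg adjustment over all genes of a comparison. Scripts were tested on simulated data. Where a group had 0 counts in all, a fold is a lower bound against 3 counts over its 2 libraries, and where it had 1 to 3 counts the ratio of pooled rates is given with an exact conditional (Clopper-Pearson) 95% interval. Such intervals and floors cover counting error only, and 3 counts stand for 0.161 to 0.379 CPM in the 4 libraries.

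The genes named were the 15 with the largest change each way among genes with a symbol past both thresholds, with libraries that did not overlap and at least 20 counts in each library of the higher group, then in each of 33 gene lists up to 6 genes each way past the adjusted p with the list's defining genes, and genes that the study names for these pre-ME (the HOXA genes with against without ActA, and EOMES, WNT3A and TFAP2A against cjiPSCs). A few genes that this rule names are not reported here. Comparison, lists and rule were chosen with earlier results of these data known. Members with no count in the 4 libraries are not counted as tested. Of the 25100 names, 21267 matched a RefSeq table of calJac240_pri, from which only gene order was taken. Alternatives were DESeq2 1.42.0 on 20 or 4 libraries, edgeR on 4, 8 or 16 libraries, DESeq2's size factors, no filter, a mean of 1 CPM, glmTreat, a replicate block and each of the 4 libraries left out. Tables and plots used Python 3.11.15, pandas 2.3.3, scipy 1.17.1 and matplotlib 3.10.9.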

Additional observations from a re-analysis of the deposited data

Results flagged for a closer look

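The change with ActA differed between pre-ME from cjPSCM and pre-ME from TESR for 63 genes (0.399% of those tested) by the interaction term of the edgeR model, with Benjamini-Hochberg adjustment. The named genes among them follow, each with the log2 fold change with ActA in cjPSCM minus that in TESR. Their 4 libraries per medium are separate cultures of the same line. The number of genes called depended on the libraries in the model, as edgeR called 2515 on the 8 pre-ME libraries alone.

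ADRA1B, an adrenergic receptor gene, rose more in cjPSCM by 2.00 (adjusted p = 0.0227), with log2 fold changes of 6.02 in cjPSCM and 4.02 in TESR. For NKX2-3 the difference was 2.89 (adjusted p = 0.0154). The WNT inhibitor NOTUM differed by 1.57 (adjusted p = 0.0120), with 2.22 in cjPSCM and 0.65 in TESR. The caudal gene CDX1 differed by 1.72 (adjusted p = 0.0206) and the NOTCH ligand JAG2 by 1.23 (adjusted p = 0.0286).

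On the other side, NANOG rose less in cjPSCM, with a difference of -2.44 (adjusted p = 0.0114), with 0.76 there and 3.19 in TESR. The endoderm factor GATA6 had log2 fold changes of -0.01 and 2.10, a difference of -2.11 (adjusted p = 0.0227). ADM, the gene of the vasoactive peptide adrenomedullin, had log2 fold changes of -1.05 in cjPSCM and 1.97 in TESR, a difference of -3.03 (adjusted p = 0.0173). The retinoic acid receptor RARB differed by -1.12 (adjusted p = 0.0262) and ANXA3, an annexin, by -1.46 (adjusted p = 0.0436). With 2 libraries per group, no group was large enough to look for single outlying libraries.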

How the results depend on the processing

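The counts at both thresholds kept their order, with more genes higher than lower, under all alternatives run, and glmTreat, which tests against a log2 fold change of 2, called 29 higher and 2 lower. At the adjusted p alone, edgeR on the 8 pre-ME libraries called 3290 higher and 2954 lower, and edgeR on the 16 libraries that are not cjiPSCs, added after seeing the data, 3334 and 3088. The number of genes whose effect differed between media moved most, to 338 with DESeq2 on all 20 libraries, 2515 with edgeR on 8 libraries, 3066 on 16 and 734 without a filter on low counts, and the cause was not tested. With DESeq2 on 20 libraries 34 genes, in place of 22, were higher in both pre-ME and cjPGCLCs. With 1 of the 4 libraries left out, 138 to 215 genes were higher and 43 to 87 lower at both thresholds, 521 to 1277 and 202 to 984 at the adjusted p, and 9 to 54 differed between media. Of 193 named genes past the adjusted p, 105 stayed past it under all settings that gave them a value and none changed sign. The labels give replicate numbers but not what a number shares, and with 2 pairs the correlation of replicate differences across genes was 0.346. With this number as a replicate block over all 20 libraries 219 genes were higher and 108 lower at both thresholds and 69 differed between media, and with the block in the 4 libraries alone 219 and 109. Depth limits genes such as HOXA7, EOMES, MIXL1, WNT3 and TBXT, with 47 counts or fewer per library.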

Other observations

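Cholesterol synthesis genes were lower with ActA where they changed, with 6 lower and 1 higher of 23 tested against 9.55% and 11.4% of all genes. MSMO1, a sterol demethylation enzyme, stood at 64.8 and 78.0 CPM with and 137 and 158 CPM without ActA (log2 fold change -1.05, SE 0.13, adjusted p = 6.99e-05), and HMGCS1, which makes HMG-CoA, at 206 and 248 against 406 and 469 CPM (log2 fold change -0.95, SE 0.15, adjusted p = 0.000365). In the 4 libraries from TESR none of the 23 passed edgeR's test (1 higher and 1 lower at an unadjusted p under 0.05, 0 with DESeq2), and the difference between media did not pass for the named members. Without replicate 1 of pre-ME + ActA or replicate 2 of pre-ME − ActA, 2 of the 6 lower genes (HMGCS1 and MSMO1) stayed past the test.

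Of 30 cell cycle genes, 4 (13.3%) were higher and 3 (10%) lower, shares near the 11.4% and 9.55% of all genes. CDKN2B, a CDK inhibitor that TGFβ is known to induce, stood at 40.3 and 29.9 CPM with and 3.27 and 4.27 CPM without ActA (log2 fold change 3.24, SE 0.33, adjusted p = 8.51e-06) and stayed past the test whichever library was left out. CCNB2, CDK1 and CCNA2, genes of mitosis and S phase, had log2 fold changes of -0.79, -0.69 and -0.41 (adjusted p = 0.00799, 0.00465 and 0.0199), and none of these stayed past the test without replicate 1 of pre-ME + ActA.

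Of 23 stress and immediate early genes, 8 (34.8%) were higher and 2 (8.7%) lower, against 11.4% and 9.55% of all genes. JUN stood at 300.3 and 256 against 116 and 128 CPM and IER2 at 269.9 and 222 against 91.2 and 102 CPM (adjusted p = 0.0113 and 0.000589), DNAJB1, a heat shock co-chaperone, at 255 and 233 against 101 and 98.3 CPM (log2 fold change 1.29, SE 0.17, adjusted p = 9.02e-05), and EGR2 at 5.50 and 4.42 against 12.2 and 15.5 CPM (log2 fold change -1.46, SE 0.35, adjusted p = 0.00899). Of the 8 higher genes 3 stayed past the test without replicate 1 of pre-ME + ActA and 5 without either library of pre-ME − ActA, and JUN and EGR2 were not among those past it throughout. Among 11 mitochondrially encoded genes none passed edgeR's test (3 higher at an unadjusted p under 0.05, 0 with DESeq2), with a summed level of 794 and 780.2 CPM with ActA against 497 and 657 CPM without.

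Of 25 glycolysis and hypoxia genes, 5 were higher and 2 lower, led by the glycolytic enzyme gene PFKP at 471 and 513 against 185 and 189.7 CPM (log2 fold change 1.40, SE 0.22, adjusted p = 0.000446) and by ENO2 at 4.97 and 5.43 against 16.8 and 18.1 CPM (log2 fold change -1.75, SE 0.39, adjusted p = 0.00555), of which PFKP alone stayed past the test without replicate 1 of pre-ME + ActA. The glycolysis and hypoxia shares were 20% higher and 8% lower, against 11.4% and 9.55% of all genes. In the list of cadherins and genes of the epithelial-mesenchymal transition 5 of 24 (20.8%) were higher and 4 (16.7%) lower, against the same shares. Among the 5 were VIM at 4067 and 4605 against 1868 and 2295 CPM (log2 fold change 1.06, SE 0.22, adjusted p = 0.00439) and CDH11 (log2 fold change 0.90, SE 0.17, adjusted p = 0.00219). Among the 4 was EPCAM (log2 fold change -1.01, SE 0.34, adjusted p = 0.0458). Without replicate 1 of pre-ME + ActA 2 of the 5 and 1 of the 4 stayed past the test.

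The shares in the other lists stand against 11.4% higher and 9.55% lower among all genes tested. Of 19 genes of naive and formative pluripotency, 4 (21.1%) were higher and 2 (10.5%) lower. Only 7 of the 19 had a positive log2 fold change, and the median was -0.25. The higher genes were KLF2, TBX3, ETV4 and ETV5, of which TBX3, ETV4 and ETV5 are also in lists above. Among the lower genes was IL6ST, the shared receptor of the LIF family, at 47.9 and 56.3 against 152 and 148 CPM (log2 fold change -1.53, SE 0.19, adjusted p = 6.99e-05). Primed pluripotency had 3 (21.4%) higher and 1 (7.14%) lower of 14, led by DUSP6 and CD24 (log2 fold change -0.82, SE 0.15, adjusted p = 0.00149 for CD24). Of the 14, 6 were positive, with a median of -0.09, and the higher genes DUSP6 and VIM are also in other lists. Placode and cranial factors had 4 (23.5%) higher and 1 (5.88%) lower of 17, with 7 of 17 positive and a median of -0.06. The lower gene was FOXI3, with 0 and 0 counts with and 20 and 6 without ActA, at least 6.19-fold lower. Of 4 trophoblast genes PGF was higher (log2 fold change 2.22, SE 0.34, adjusted p = 0.000326) and PEG10 lower (log2 fold change -0.69, SE 0.12, adjusted p = 0.00106). Of 10 keratin and desmosome genes PKP1 alone was past the test (log2 fold change 2.58, SE 0.55, adjusted p = 0.00465). In the p53 response 2 of 15 (13.3%) were lower, SESN1 and RRM2B (adjusted p = 0.00964 and 0.0421), and none higher (1 at an unadjusted p under 0.05, 0 with DESeq2). Without replicate 1 of pre-ME + ActA 2 of the 3 primed, 1 of the 4 placode and none of the p53 genes stayed past the test, and FOXI3 was lost without replicate 1 of either group.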
